A study of Mus musculus with 2 samples.

Results

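The integrin alpha and beta chains Itga4, Itgb1, Itgb7, Itga5, Itga6, Itga2b, Itgb3, Itgal, Itgb2 and Itgam were followed in single mouse leukemia cells. They were taken by gene symbol and are 10 of the 31053 genes in the count matrices. Fetal liver cells had been transduced with a retrovirus for AE9a, a truncated AML1-ETO fusion that causes acute myeloid leukemia in mice, and GFP, and had been passed to sub-lethally irradiated recipients. Once the recipients were sick they received oil or tamoxifen, and GFP+ Lin- c-Kit+ splenocytes were sorted 3 days after the first injection, with 8000 cells targeted for each of the 2 libraries. The leukemia cells of both groups carried floxed Usp18, the gene of a protease that restrains interferon signaling, and UBCER-Cre, whose recombinase is active in all tissues once tamoxifen is given. The sample labels give Usp18f/f for the oil-labelled library and Usp18delta/delta for the tamoxifen-labelled library. These labels match a single-cell experiment of the study that compared Usp18f/f with Usp18delta/delta leukemia cells. The treatment protocol instead names Usp18+/f cells and a heterozygous deletion, so groups are named here by injection. The study describes pools of 3 mice per group for an experiment with heterozygous cells, and no label assigns a cell to a mouse. Splenocytes were gated with a commercial lineage cocktail whose antibodies are not listed for this sort, while the lineage mix listed for bone marrow contained CD11b, the protein of Itgam. The comparison is of the adhesion receptors of the leukemia cells after oil and after tamoxifen, since the study was interested in the pair formed by Itga4 and Itgb1. Effects of tamoxifen itself, of active Cre and of Usp18 deletion cannot be told apart in it.

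Integrins are surface receptors made of 1 alpha and 1 beta chain, and a chain without a partner is largely kept inside the cell. Talin and kindlin bind the tail of the beta chain and switch the receptor to its high-affinity form, whereupon it holds the cell to matrix proteins or to adhesion molecules of other cells. Blood progenitors use the pair of Itga4 and Itgb1, called VLA-4, to hold to VCAM-1 and fibronectin in bone marrow and spleen. Itga4 with Itgb7, called LPAM-1, binds MAdCAM-1 of gut vessels and guides mast cell progenitors and lymphocytes there. Itga5 with Itgb1 (VLA-5) is the classical fibronectin receptor, and Itga6 with Itgb1 (VLA-6) binds laminin. Itga2b with Itgb3 (GPIIb/IIIa) is the fibrinogen receptor of platelets, and Itgal and Itgam share the leukocyte chain Itgb2 in LFA-1 and Mac-1.

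The oil-labelled library held 6838 cells and 66045700 UMIs after cells with fewer than 500 genes or over 10% mitochondrial UMIs were left out, and the tamoxifen-labelled library held 6472 cells and 60661486 UMIs. The median cell had 8622.5 and 8209.5 UMIs, and 12 barcode sequences occurred among the kept cells of both libraries. Usp18 transcripts were more frequent in the tamoxifen-labelled library, at 933 UMIs against 371, which goes against its label as a deletion, although 3′ reads need not show the loss of an upstream exon. Isg15, an interferon-induced gene, was also higher there, at 113 against 47.8 CPM, UMI counts scaled to a common library total. Ptprc, the common leukocyte antigen, had 9 and 3 UMIs and Cd34 had 5 and 15, whereas Kit, the sorted receptor, stood at 171 and 232 CPM. Mast cell markers summed to 3928 and 3745 CPM, erythroid markers to 8710 and 10074 CPM and megakaryocyte and platelet markers to 186 and 166 CPM. Those of granulocytes, monocytes, T and NK cells, B cells, dendritic cells and endothelium each summed to at most 3.59 CPM. Each group is 1 library, so there is no replicate check, no test was possible, and every interval below is a 95% interval for counting error alone.

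Itga4, Itgb1 and Itgb7 carried most of the integrin transcripts in both libraries. Itga4 had 12988 UMIs and 197 CPM in the oil-labelled library and 11457 UMIs and 189 CPM in the tamoxifen-labelled library. Itgb1, the beta chain that most alpha chains of adherent cells share, had 12073 UMIs (183 CPM) and 10470 UMIs (173 CPM). Itgb7, the beta chain of gut-homing integrins, had 7177 UMIs (109 CPM) and 5662 UMIs (93.3 CPM). These levels count captured 3′ ends, 1 per transcript whatever its length, so they can be set side by side as transcript numbers apart from differences in capture. Itga4 made up 69.2% and 68.6% of the alpha chain UMIs of the 10 genes, and Itgb1 61.7% and 63.5% of their beta chain UMIs.

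The laminin receptor chain Itga6 followed at 43.6 and 37.3 CPM, from 2879 and 2260 UMIs, and the LFA-1 chain Itgal at 34.0 and 36.8 CPM, from 2248 and 2235 UMIs. Itga2b, the platelet alpha chain, had 425 and 558 UMIs, that is 6.43 and 9.20 CPM. Itgb2, the leukocyte beta chain, was at 4.21 and 4.71 CPM from 278 and 286 UMIs, and Itga5 at 3.36 and 3.17 CPM from 222 and 192 UMIs. The platelet beta chain Itgb3 had 30 and 68 UMIs, or 0.454 and 1.12 CPM. Itgam, the alpha chain of Mac-1 and the CD11b antigen of granulocytes and macrophages, had 1 UMI in each library. If the cocktail of this sort held CD11b too, cells with that protein were gated out, so a low Itgam level in the leukemia and the effect of the gate cannot be told apart. The order from Itga4 down to Itgam was the same in both libraries, and neighbours were apart by more than their counting intervals, except Itgb2 and Itga5 in the oil-labelled library and Itga6 and Itgal in the tamoxifen-labelled library.

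**Figure D1:**
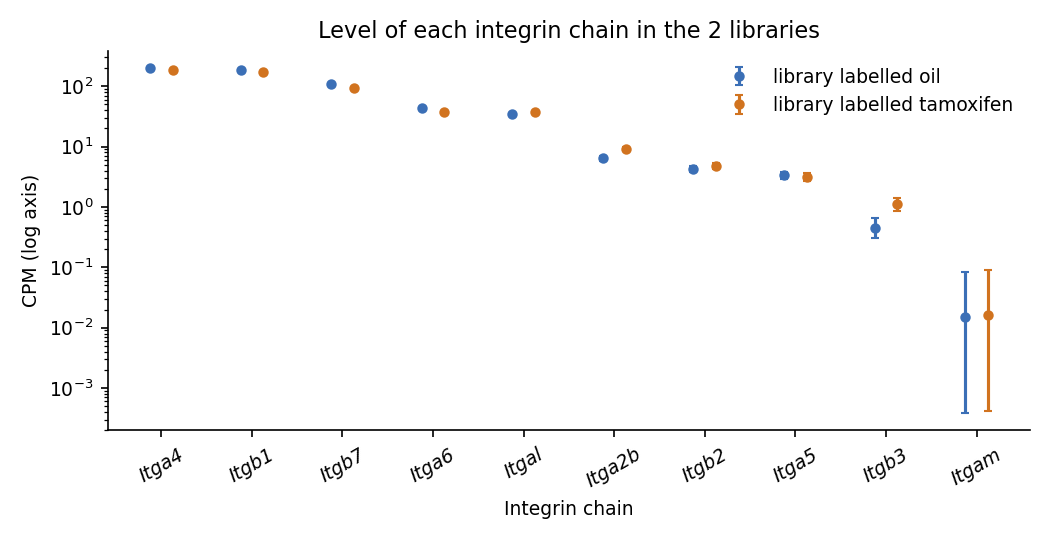
Level of each integrin chain in CPM on a log axis, with points for the oil-labelled and tamoxifen-labelled libraries and bars for exact 95% Poisson intervals. The order is the same in both libraries, from Itga4 at 197 and 189 CPM down to Itgam with 1 UMI each.

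Positions are those of GENCODE M21 (GRCm38, which is mm10). Itga4 is at chr2:79255426-79333123 on the plus strand and Itga6 at chr2:71745616-71858416, also plus. Itgb1 is at chr8:128685654-128733200 (plus), Itgb7 at chr15:102215995-102231944 (minus) and Itga5 at chr15:103344286-103366763 (minus). Itga2b lies at chr11:102453297-102470122 (minus) and its partner Itgb3 at chr11:104608000-104670476 (plus). Itgal is at chr7:127296260-127335138 (plus) and Itgam at chr7:128062640-128118491 (plus), while Itgb2 is at chr10:77530252-77565708 (plus). Itgam overlaps the gene model Gm49368 on its own strand, Itga6 overlaps Gm13663 and Gm13662, Itga2b overlaps Gm23563 and Itga5 overlaps Mir6963. Whether these models were among the genes counted was not checked. The counts of these 4 chains are uncertain where reads were shared with them.

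RefSeq start sites on GRCm38.p6 were at hand for 6 of the 10 genes, and the 250 bases before the start are shown for the partners Itga4, Itgb1 and Itgb7, whose levels moved together or apart across the cells as described below. AML1 is a RUNX factor, so TGTGGT was searched as a RUNX motif, with AGATAA for GATA factors and AGGAAG for ETS factors, on both strands. The windows are chr2:79255176-79255425 on the plus strand for Itga4, chr8:128685404-128685653 on the plus strand for Itgb1 and chr15:102231936-102232185 on the minus strand for Itgb7. Each is printed in the direction of transcription, 5′ to 3′, with motif letters in capitals.
Itga4: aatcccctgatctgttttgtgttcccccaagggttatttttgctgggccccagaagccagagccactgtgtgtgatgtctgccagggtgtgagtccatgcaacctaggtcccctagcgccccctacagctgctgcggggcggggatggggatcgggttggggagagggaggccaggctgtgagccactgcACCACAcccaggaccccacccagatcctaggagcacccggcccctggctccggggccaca
Itgb1: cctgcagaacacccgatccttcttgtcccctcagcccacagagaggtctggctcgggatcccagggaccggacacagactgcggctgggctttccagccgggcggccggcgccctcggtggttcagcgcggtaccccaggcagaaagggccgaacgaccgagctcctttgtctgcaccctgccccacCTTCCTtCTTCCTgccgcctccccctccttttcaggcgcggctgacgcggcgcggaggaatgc
Itgb7: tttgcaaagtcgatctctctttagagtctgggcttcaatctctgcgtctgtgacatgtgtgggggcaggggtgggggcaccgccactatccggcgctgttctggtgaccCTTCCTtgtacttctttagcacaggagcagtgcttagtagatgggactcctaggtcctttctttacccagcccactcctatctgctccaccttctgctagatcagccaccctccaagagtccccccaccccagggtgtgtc
The Itga4 window held 1 RUNX match, the letters ACCACA of the other strand, which begins 60 bases before the start. Itgb1 held 2 ETS matches (CTTCCT), beginning 63 and 56 bases before the start, and Itgb7 held 1 that begins 141 bases before it. None of the 6 windows held the GATA letters. Of 32817 promoter windows of this length, 14.0% held the RUNX letters, 9.99% the GATA letters and 29.5% the ETS letters, so these matches describe the sequence and are not evidence of a bound factor.

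Between the libraries most chains differed little. Of the 8 chains with at least 100 UMIs, the minimum used for all genes, the interval of the tamoxifen over oil ratio lay above 0 on the log2 scale for 2 (Itga2b and Itgal) and below 0 for 4 (Itga4, Itgb1, Itgb7 and Itga6). Over the 10527 genes above this minimum the interval lay above 0 for 19.3% and below 0 for 39.8%. The median log2 ratio of the 8 chains was -0.07, beside -0.06 for all of those genes. Only Itga2b was at least 1.2-fold higher, a size that 9.08% of genes reached, and no chain was 1.2-fold lower, as 16.9% of genes were. None of the 8 reached 1.5-fold, which 2.09% of genes passed upward and 1.27% downward.

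Itgb7 had a log2 ratio of -0.22 (interval -0.27 to -0.17), and Itga6 one of -0.23 (-0.31 to -0.15). Both were lower in the tamoxifen-labelled library under each of the 9 other cell sets, scalings and weightings tried. Itgb1 had a ratio of -0.08 (-0.12 to -0.04) and Itga4 one of -0.06 (-0.09 to -0.02). The value for Itga4 turned to 0.0072 with TMM scaling, to 0.0049 with median-ratio scaling and to 0.022 when mitochondrial and ribosomal protein genes were left out of the total, so no direction can be given for it across scalings. Itgb1 shrank to -0.017, -0.020 and -0.0023 under these 3 scalings, each outside its counting interval, and stood at -0.21 under a stricter cell filter (1000 genes, 5% mitochondrial UMIs). Ribosomal protein genes took 24.4% of the UMIs in the oil-labelled library and 28.1% in the tamoxifen-labelled library.

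Itga2b was higher in the tamoxifen-labelled library by a log2 ratio of 0.52 (0.33 to 0.70), which is 1.43-fold. Itgb3, below the minimum, had a log2 ratio of 1.30 (0.66 to 1.97) from 30 and 68 UMIs. The other megakaryocyte and platelet markers did not share this direction: of 4 with at least 100 UMIs, 3 were lower and 1 interval included 0. Of all genes with at least 100 UMIs, 39.8% were lower in this sense. Gp5, a von Willebrand receptor chain, stood at 101 and 87.0 CPM, whereas Gp6 was at 0 UMIs in both libraries and Pf4 had 38 and 28 UMIs. Itgal, the LFA-1 chain, had a ratio of 0.11 (0.03 to 0.20). Itgb2 at 0.16 (-0.08 to 0.41) and Itga5 at -0.09 (-0.37 to 0.20) had intervals that included 0.

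Which chains were found together in a cell was read from cells thinned to 3000 UMIs each. This left 6330 and 6127 cells after 508 and 345 shallower cells were set aside. At this depth Itga4 had a UMI in 42.7% and 42.0% of cells, Itgb1 in 39.4% and 37.4%, and Itgb7 in 1898 and 1571 cells, the latter 25.6%. Itga6 was found in 12.9% and 9.87% of cells, Itgal in 11.9% and 11.6%, Itga2b in 2.65% and 3.33%, Itgb2 in 1.85% and 1.70% and Itga5 in 76 and 52 cells. Itgb3 was found in 10 and 27 cells and Itgam in none, which by 3 counts of the total allows a share of cells with a UMI at this depth of up to 0.0474% and 0.0490%. At full depth 1 cell of each library had an Itgam UMI. At full depth Itga4 was found in 73.4% and 70.9% of cells and Itgb1 in 69.7% and 66.3%, so a cell without a UMI is not a cell without the chain. All cells belong to 1 sorted population, and no cell type that should lack these genes was at hand to give the level due to free RNA.

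VLA-4 and LPAM-1 were the most frequent pairs. Both chains of VLA-4, Itga4 and Itgb1, had a UMI in 1054 cells (16.7%, interval 15.7% to 17.6%) of the oil-labelled library and in 961 cells (15.7%, 14.8% to 16.6%) of the tamoxifen-labelled library. The difference was -0.97 percentage points (-2.26 to 0.33), an interval that includes 0. Another random draw at the same depth gave -1.78 points (-3.09 to -0.47) and full depth gave -3.42 (-5.12 to -1.72), both below 0, so this result depended on the draw and on depth. Averaged over all possible draws the shares were 17.3% and 15.6%. LPAM-1, Itga4 with Itgb7, was detected in 882 cells (13.9%, 13.1% to 14.8%) and 696 cells (11.4%, 10.6% to 12.2%). Its difference was -2.57 points (-3.74 to -1.41). VLA-6, Itga6 with Itgb1, was detected in 5.55% (4.99% to 6.14%) and 3.53% (3.08% to 4.02%), a difference of -2.02 points (-2.75 to -1.29). The other draw gave -3.14 points (-4.30 to -1.98) for LPAM-1 and -1.62 points (-2.35 to -0.89) for VLA-6. Averaged over all possible draws, the shares were 14.3% and 11.5% for LPAM-1 and 5.20% and 3.81% for VLA-6. The 3000 UMIs of a thinned cell include ribosomal protein genes, which took 24.4% and 28.1% of the UMIs of the 2 libraries. Thinning without these genes was not run. The part of this difference in the shares of all chains and pairs was therefore not tested.

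The remaining pairs were rare. VLA-5, Itga5 with Itgb1, was found in 37 and 16 cells, 0.585% and 0.261%, a difference of -0.32 points (-0.57 to -0.10). The interval included 0 at 6000 UMIs, where the difference was -0.10 points (-0.53 to 0.33), and at full depth, where VLA-5 was found in 151 and 131 cells, 2.21% and 2.02%, a difference of -0.18 points (-0.68 to 0.31). Averaged over all possible draws at 3000 UMIs, the shares of VLA-5 were 0.565% and 0.393%. LFA-1, Itgal with Itgb2, was found in 12 and 11 cells and GPIIb/IIIa, Itga2b with Itgb3, in 5 and 4 cells. No cell held both chains of Mac-1, Itgam and Itgb2, at 3000 UMIs or at full depth.

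**Figure D2:**
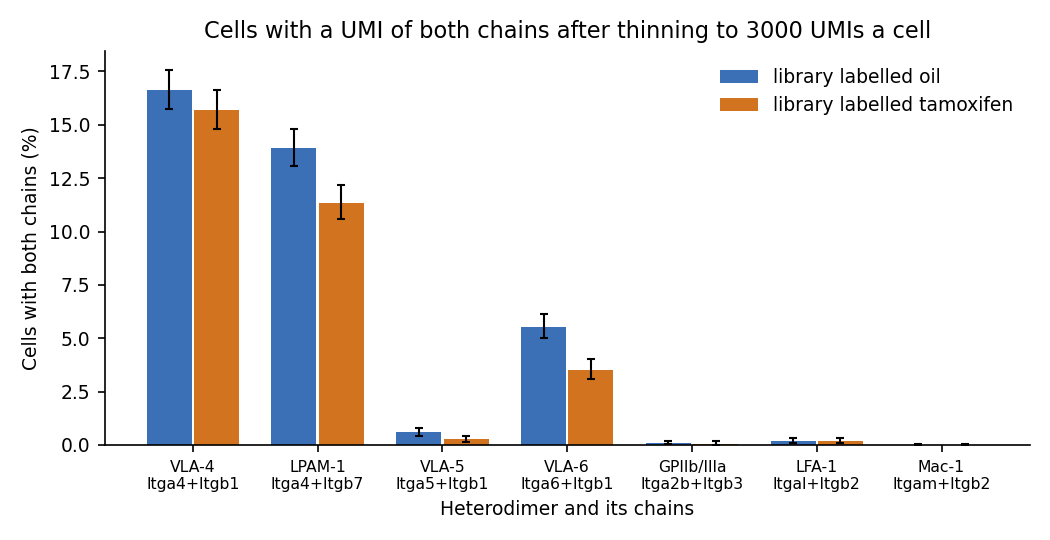
Percent of cells with at least 1 UMI of both chains of each heterodimer after thinning to 3000 UMIs a cell, with bars for the oil-labelled and tamoxifen-labelled libraries and exact 95% Clopper-Pearson intervals. VLA-4 at 16.7% and 15.7% and LPAM-1 at 13.9% and 11.4% stand above VLA-6 at 5.55% and 3.53%, and the other pairs are each under 1%.

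For the 3 frequent pairs the share of cells with both chains stayed near the product of the shares of the single chains. The observed share over that product was 0.989 and 0.999 for VLA-4, 1.09 and 1.05 for LPAM-1 and 1.09 and 0.955 for VLA-6. Among the rare pairs it was 1.24 and 0.823 for VLA-5, 0.863 and 0.911 for LFA-1, and 18.8 and 4.45 for GPIIb/IIIa, the last from 5 and 4 cells. Itgb1 was thus found in 39.0% of cells with Itga4 and in 39.7% of cells without it in the oil-labelled library, and in 37.3% and 37.4% in the tamoxifen-labelled library. Itgb7 was found in 32.6% of cells with Itga4 against 28.0% of the others in the oil-labelled library, and in 27.1% against 24.6% in the tamoxifen-labelled library. At this depth, over all cells of a library, finding Itga4 in a cell thus had little relation to finding Itgb1 in it. Their levels nevertheless ran in opposite directions across the groups of cells described below.

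Among the 2704 cells with Itga4 in the oil-labelled library, 27.0% had Itgb1 without Itgb7, 20.6% had Itgb7 without Itgb1, 325 cells (10.8% to 13.3%) had both beta chains and 40.4% had neither. The corresponding shares of the 2573 cells in the tamoxifen-labelled library were 28.6% and 18.3%, 225 cells with both beta chains (7.68% to 9.90%) and 44.3%. The intervals for cells with Itga4 and both of its beta chains thus did not overlap between the libraries. The UMI ratio of Itgb7 to Itga4 was 0.553 (0.537 to 0.569) in the oil-labelled library and 0.494 (0.479 to 0.510) in the tamoxifen-labelled library. That of Itgb1 to Itga4 was 0.930 and 0.914, with overlapping intervals.

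Itgal was in excess of its partner. It had 8.09 and 7.81 UMIs per UMI of Itgb2. Itgb2 was found in 1.60% and 1.55% of cells with Itgal, beside 1.88% and 1.72% of cells without it. Of the cells with Itgb2, 10.3% and 10.6% had Itgal. Itga2b had 14.2 and 8.21 UMIs per UMI of Itgb3. Of the 10 cells with Itgb3 in the oil-labelled library, 5 also had Itga2b, as did 4 of the 27 such cells in the tamoxifen-labelled library, against 2.65% and 3.33% of all cells. These counts are small and depended on the draw: GPIIb/IIIa was found in 2 and 3 cells in another draw and in 0 and 4 cells at 6000 UMIs. At full depth it was found in 7 of the 28 and 15 of the 63 cells with Itgb3.

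A heterodimer is called possible here where a UMI of both its chains was found, so a cell not counted may still hold both. At least 1 of the 7 heterodimers was possible in 29.0% of cells (27.8% to 30.1%) in the oil-labelled library and in 25.4% (24.3% to 26.5%) in the tamoxifen-labelled library. A pair of heterodimers was possible in 5.78% and 4.49%, 3 in 1.12% and 0.588%, and more than 3 in none at this depth. The most frequent combination was VLA-4 with LPAM-1 and no other, in 254 and 190 cells, followed by VLA-4 with VLA-6 in 101 and 72 cells. VLA-4, LPAM-1 and VLA-6 together were possible in 62 and 29 cells. The share of cells with each pair depended on depth: without thinning VLA-4 was possible in 54.3% and 50.8% of cells, LPAM-1 in 42.8% and 37.3% and VLA-6 in 23.2% and 19.1%.

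The level of most chains depended on the phase of the cell cycle. Phase calls from the thinned cells put 43.5% of cells of the oil-labelled library and 57.2% of the tamoxifen-labelled library in G1, 20.6% and 14.2% in S, and 35.8% and 28.6% in G2M. Free RNA enters such calls, and its part was not tested. Cells in G1 were shallower, with a median of 5994 and 6444 UMIs, than cells in G2M with 12900 and 12412. Levels are therefore given as CPM, scaled to all UMIs of each phase.

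Itgb7 stood at 207 CPM in G1, 72.0 in S and 65.1 in G2M in the oil-labelled library, and at 138, 60.1 and 57.5 CPM in the tamoxifen-labelled library. Itga4 was at 245 CPM in G1, 179 in S and 174 in G2M, and at 221, 166 and 163 CPM in the tamoxifen-labelled library. Itgb1 ran the other way, at 164, 184 and 192 CPM in the oil-labelled library and at 154, 186 and 185 CPM in the tamoxifen-labelled library. In both libraries the interval of Itgb7 and of Itga4 in G1 lay above those in S and G2M, and that of Itgb1 lay below them.

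Itgal had 54.9 CPM in G1, 27.5 in S and 25.1 in G2M in the oil-labelled library, and 49.1, 30.8 and 26.2 CPM in the tamoxifen-labelled library. Itga6 had the same order, with 53.4, 42.8 and 38.4 CPM and with 43.7, 36.4 and 30.7 CPM. Itga2b was at 13.8 CPM in G1 against 3.36 in S and 3.58 in G2M, and at 15.1 against 4.90 and 4.03 CPM in the tamoxifen-labelled library. Itgb2 was at 8.43, 3.18 and 2.15 CPM and at 7.46, 3.69 and 2.21 CPM. Of the 8 chains with at least 100 UMIs, Itgb1 was thus the only one with its lowest level in G1 in both libraries.

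**Figure D3:**
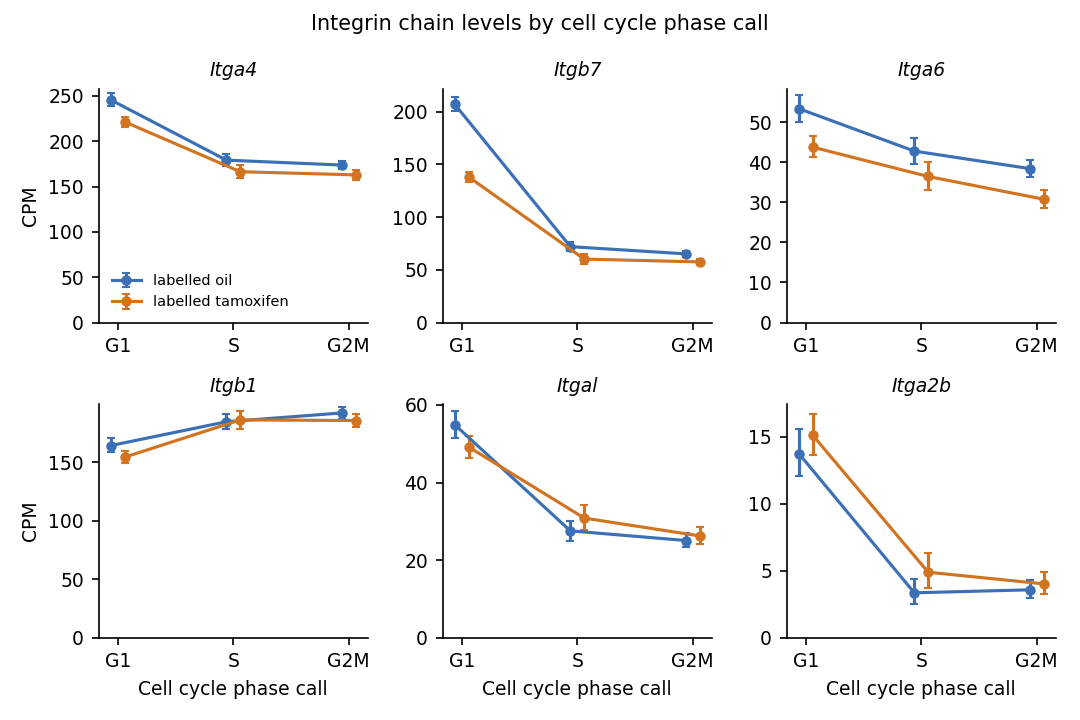
Levels of 6 integrin chains in CPM, scaled to all UMIs of the cells called G1, S or G2M, in the oil-labelled and tamoxifen-labelled libraries, with exact 95% Poisson intervals. Itgb7 drops from 207 CPM in G1 to 65.1 CPM in G2M in the oil-labelled library, and Itgb1 is lowest in G1 in both libraries.

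Since the libraries had different shares of each phase, the ratios were also taken within phases. For Itgb7 the log2 ratio was -0.58 (-0.65 to -0.52) in G1, -0.26 (-0.40 to -0.12) in S and -0.18 (-0.28 to -0.08) in G2M. All 3 intervals lay below 0, and the value in G1 was lower than the -0.22 over all cells, while the tamoxifen-labelled library held more cells of G1, the phase in which Itgb7 was highest. With the phases weighted equally the ratio of Itgb7 was -0.43. LPAM-1 was possible in 22.4% and 15.3% of G1 cells, in 8.65% and 5.53% of S cells and in 6.70% and 6.44% of G2M cells. The 2 libraries had intervals that did not overlap in G1, at 20.9% to 24.0% and 14.1% to 16.5%, and overlapped in S and in G2M.

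Itga4 was lower in the tamoxifen-labelled library in every phase by total-UMI scaling, with ratios of -0.15, -0.11 and -0.09 in G1, S and G2M. Itga6 had -0.29, -0.23 and -0.32, and all 3 intervals lay below 0. For Itga2b the ratio was 0.14 (-0.10 to 0.37) in G1, 0.54 (-0.02 to 1.10) in S and 0.17 (-0.25 to 0.58) in G2M, so no phase alone had an interval above 0. With equal weight of the phases it was 0.22, and Itga2b no longer reached 1.2-fold. Itgal had -0.16 (-0.28 to -0.04) in G1, 0.16 (-0.04 to 0.37) in S and 0.07 (-0.09 to 0.22) in G2M. Over all cells Itgal had 0.11 and with phases weighted equally -0.02, so its sign changed with this weighting. The cause was not tested. Itgb1 had -0.09 (-0.16 to -0.02) in G1, 0.01 in S and -0.05 in G2M, the last 2 with intervals that included 0.

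**Figure D4:**
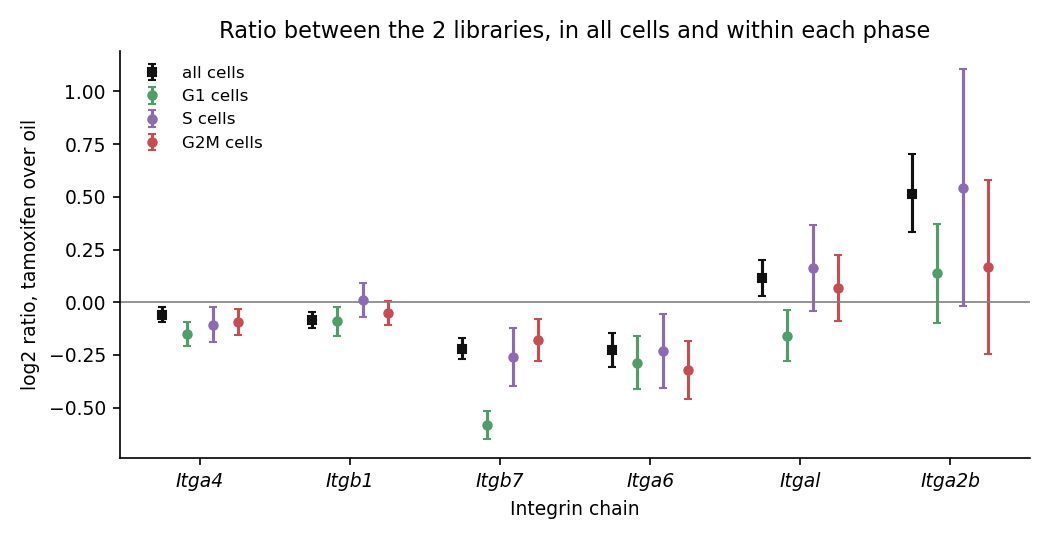
Log2 ratio of the tamoxifen-labelled library over the oil-labelled library for 6 integrin chains, over all cells and within the cells of each phase, with 95% counting intervals. Itgb7 has its lowest ratio, -0.58, in G1, and Itgal is above 0 over all cells and below 0 in G1.

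Mast cell markers gave a second axis. Cells of both libraries were placed together in 3 bins of equal size by the share of their UMIs from the 14 mast cell markers, none of which is an integrin. Of the 13 markers with at least 100 UMIs, 11 had a tamoxifen over oil interval below 0, beside 39.8% of all genes. Their median log2 ratio was -0.28. Itgb7 had 58.4 CPM in the lowest bin, 97.7 in the middle and 223 in the highest in the oil-labelled library, and 51.6, 86.0 and 175 CPM in the tamoxifen-labelled library. Itga4 had 156, 203 and 268 CPM, and 159, 194 and 229 CPM. Itga2b stood at 2.74, 5.53 and 15.5 CPM, and at 3.83, 7.02 and 21.1 CPM. Itgb1 had 190, 185 and 162 CPM, and 183, 177 and 146 CPM. Itgb7, Itga4 and Itga2b were thus highest, and Itgb1 lowest, in the cells with the most mast cell transcripts in both libraries. Between the libraries, the log2 ratio of Itga4 was 0.03 (-0.03 to 0.09) in the lowest bin, -0.06 in the middle and -0.22 (-0.29 to -0.15) in the highest. That of Itgb7 was -0.18, -0.18 and -0.35. Itga2b had 0.48 (0.04 to 0.93), 0.34 (-0.01 to 0.70) and 0.45 (0.18 to 0.71).

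Itga6 had 31.7 CPM in the lowest and 60.4 in the highest bin of the oil-labelled library, and 29.7 and 45.7 CPM in the tamoxifen-labelled library. Itgal had 23.6 and 54.9 CPM, and 28.3 and 53.6 CPM. Itgb2 and Itga5 were higher in the highest bin as well, at 8.49 and 7.39 CPM in the oil-labelled library. LPAM-1 was possible in 5.42%, in 11.6% and in 531 of 2126 cells from the lowest to the highest bin in the oil-labelled library, and in 5.16%, 10.0% and 18.7% in the tamoxifen-labelled library. VLA-4 was possible in 14.3% (12.8% to 15.8%), 18.1% (16.5% to 19.9%) and 17.7% (16.1% to 19.4%) from the lowest to the highest bin in the oil-labelled library. In the tamoxifen-labelled library it was possible in 16.2%, 16.0% and 14.9%, with overlapping intervals. The 2 axes overlap. The highest bin held 1729 of the 2754 G1 cells of the oil-labelled library and 1773 of the 3504 of the tamoxifen-labelled library. The ratios and LPAM-1 shares within G1 thus compare cells of unlike mast cell marker share. Ratios within phase and bin together were not taken. Depth moved with the axis as well, from a median of 13123 and 11759 UMIs in the lowest bin to 5552 and 5678 in the highest, and its part was not tested. Erythroid marker bins, made the same way, gave another order. From the lowest to the highest, Itgb7 went from 110 to 135 CPM in the oil-labelled library and from 97.0 to 109 CPM in the tamoxifen-labelled library. Itgb1 went from 164 to 171 and from 155 to 165 CPM. Itga4, Itga6, Itga2b and Itgal were lower in the highest bin of both libraries, Itga6 going from 60.3 to 28.2 and from 48.0 to 26.8 CPM. Between the libraries the log2 ratio of Itga2b in these bins was 0.44 (0.18 to 0.71), 0.39 (-0.01 to 0.79) and 0.54 (0.17 to 0.92).

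**Figure D5:**
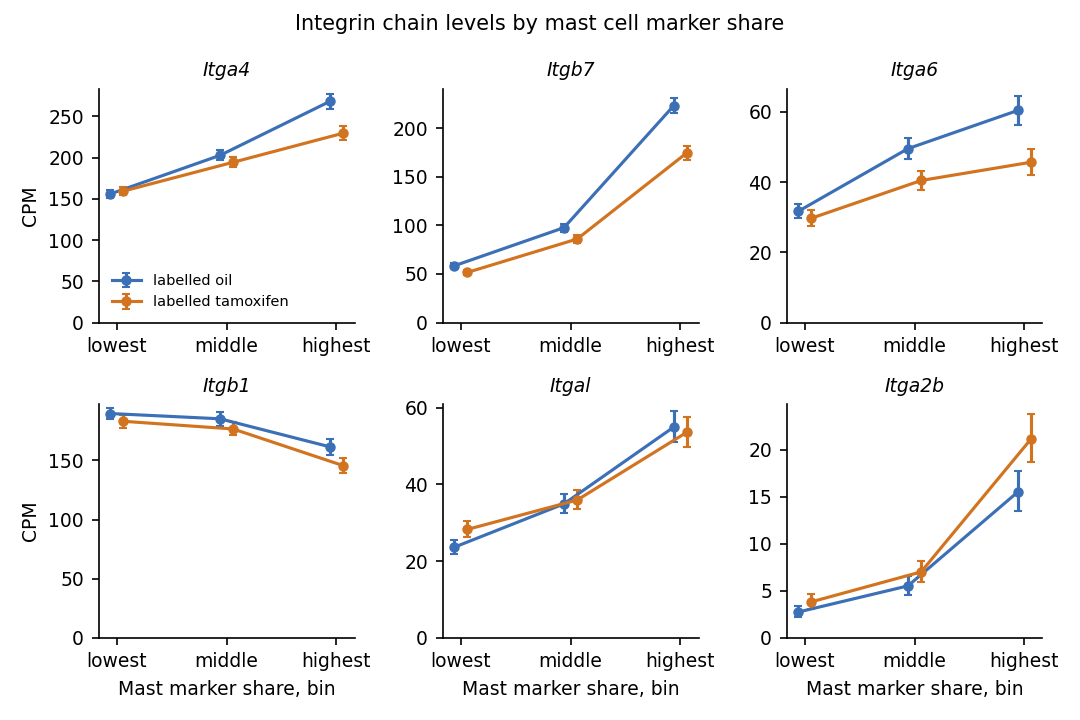
Levels of 6 integrin chains in CPM, scaled to all UMIs of the cells of each bin of the mast cell marker share, in the oil-labelled and tamoxifen-labelled libraries, with exact 95% Poisson intervals. Itgb7 goes from 58.4 to 223 CPM and from 51.6 to 175 CPM, and Itgb1 is lowest in the highest bin.

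Over the 18 groups of cells given by library, phase and bin, the levels of Itga4 and Itgb7 went together with Pearson r = 0.91 on log2(CPM + 1), and those of Itga4 and Itga6 likewise with 0.91. Itgb1 went against Itga4 (-0.68), Itgb7 (-0.79) and Itgal (-0.83). These correlations describe groups of cells that share 2 libraries, depth and markers. Among 5663 genes of at least 20 CPM, those most like Itga4 were Gsn, the actin-severing gelsolin, Osbpl3 and Gnas, the stimulatory G protein subunit, with r from 0.96 to 0.97. Those most like Itgb7 were Tspo, a protein of the outer mitochondrial membrane, Dhrs1 and Smim5, each with r of 0.98. Those most like Itgb1 were Exosc1, a subunit of the RNA exosome, Emc4, of the membrane protein insertion complex, and Pfdn4, of the prefoldin chaperone, each with r of 0.92. Spint2, Sdsl and Cst7 led for Itga6 (0.92 to 0.93), and Maml3, Pld3 and Aldh2 for Itgal (0.96 to 0.98).

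Of the 16 other integrin chains 3 had at least 100 UMIs. Itga9, which pairs with Itgb1, was at 29.4 and 26.8 CPM with a log2 ratio of -0.14 (-0.23 to -0.04), and was found with Itgb1 in 3.78% and 3.10% of cells. Itgav, the alpha chain of vitronectin receptors, was at 11.1 and 11.6 CPM and was found with Itgb1 in 1.42% and 1.70% of cells. Itgb4, the partner of Itga6 in epithelial hemidesmosomes, had 93 and 87 UMIs. Itgae, which can also pair with Itgb7, was found with it in 3 and 1 cells. Itga3, Itgax and Itgb8 had no UMI in either library.

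Most of the machinery that activates and anchors integrins was present at similar levels. Of 37 genes for activators and adaptors, 30 had at least 100 UMIs, of which 3 had an interval above 0 and 9 below it, with a median log2 ratio of -0.01. These are 10% and 30%, beside 19.3% and 39.8% of all genes with at least 100 UMIs. The kindlin Fermt3 stood at 331 and 337 CPM and the talin Tln1 at 236 in both libraries. At the upper end were Tgfb1i1, a paxillin-like adaptor, at 0.39 with an interval that included 0, Fyb, the adaptor ADAP, at 0.15, and Cyth1, a cytohesin, at 0.11 with an interval that included 0. At the lower end were Cib1, which binds the tail of Itga2b, at -0.28, Rap1b, a small GTPase that drives integrin activation, at -0.23, and Itgb1bp1, which competes with talin for Itgb1, at -0.21.

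Of 14 surface partners, 13 had at least 100 UMIs, with 4 intervals above 0 and 7 below. These are 30.8% and 53.8%, beside 19.3% and 39.8% of all genes with at least 100 UMIs. Plaur, the urokinase receptor, stood at 12.3 and 6.68 CPM (log2 ratio -0.89), Cd44, the hyaluronan receptor, at 16.0 and 10.1 CPM (-0.66) and the tetraspanin Cd53 at 9.33 and 5.95 CPM (-0.65). The tetraspanins Cd63, with 66 and 119 UMIs (0.97), and Tspan32, at 50.8 and 63.7 CPM (0.33), were higher, as was Lgals3bp at 61.4 and 74.6 CPM (0.28). Of 29 ligand genes 8 had at least 100 UMIs, with 2 intervals above 0 and 5 below, or 25% and 62.5% beside the same shares of all genes. Icam4, the erythroid ligand of VLA-4 and other integrins, stood at 136 and 114 CPM (-0.26), Icam2, a ligand of LFA-1, at 91.8 and 71.3 CPM (-0.37) and the laminin chain Lama5 at 3.65 and 2.46 CPM (-0.57). Vcam1, the counter-receptor of VLA-4, had 54 and 73 UMIs in the sorted cells (0.56, 0.03 to 1.09), Emilin1, a matrix ligand of VLA-4, had 66 and 82 UMIs (0.44, -0.05 to 0.93) and Icam1 was at 15.8 and 18.4 CPM (0.22).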

How the data were processed

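Single-cell RNA was measured in 1 library per group. The authors deposited UMI counts per gene and cell, which they made with Cell Ranger 3.0.2 on mm10 from a 10x Chromium V3 kit, with no normalization. Per the labels Seurat was also used, but its settings were not used here. Cells needed 500 or more genes and no more than 10% mitochondrial UMIs, and their counts were summed per library and scaled to CPM. Ratios of tamoxifen over oil have exact conditional binomial intervals and were taken for genes whose UMIs in both libraries together reached 100. CPM values have exact Poisson intervals, shares of cells exact Clopper-Pearson intervals and differences of shares Newcombe intervals, all at 95% and for counting error only.

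For shares, phases and marker bins, UMIs of each cell were drawn once at random down to 3000. Phases were called with scanpy on the thinned cells of both libraries together, and levels within phases and bins use all UMIs of those cells. Scrublet called 5 and 0 doublets, too few to be of use, and none were removed. No p-value was computed. Genes outside the 10 chains were named as the 3 highest and 3 lowest ratios of each list, every other integrin chain above the minimum, and the 3 genes most like each chain of at least 2000 UMIs, and markers served as checks of the sort. The members and lists were chosen with earlier results of these data known. Ratio intervals and thinning were tested on simulated data. The alternatives were scaling by DESeq2 median ratios or edgeR TMM, totals that omit ribosomal protein and mitochondrial genes, other cell sets, weights, count minimums and thinning depths. Versions were R 4.3.3 with DESeq2 1.42.0 and edgeR 4.0.16, and Python 3.11.15 with scanpy 1.11.5, scipy 1.17.1, numpy 2.4.6, matplotlib 3.10.9 and pandas 2.3.3.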

Additional observations from a re-analysis of the deposited data

Results flagged for a closer look

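The 936 barcodes of the oil-labelled library and the 839 of the tamoxifen-labelled library that the cell filter left out also held integrin transcripts, above the limit that a count of 0 allows. In them Itga4 stood at 239 CPM (225 to 255) and 221 CPM (207 to 236), Itgb1 at 173 CPM (161 to 186) and 153 CPM (141 to 165), and Itgb7 at 166 CPM (154 to 179) and 125 CPM (115 to 136). Itgb7 and Itga6 were lower in the tamoxifen-labelled library among these barcodes too, with log2 ratios of -0.41 (-0.57 to -0.24) and -0.55 (-0.84 to -0.26). Itgam had no UMI in them.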

How the results depend on the processing

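No paired analysis was possible because there was a single library for oil and a single one for tamoxifen, and for the same reason no replicate could be left out. Of 81 alternative values of single chain ratios 57 stayed within the counting interval of the reported value, and 7 had the other sign. The Itga4 ratio turned to 0.0072 with TMM, 0.0049 with median-ratio scaling and 0.022 without mitochondrial and ribosomal protein genes in the total, and the Itgal ratio to -0.017 with phases weighted equally. The Itgb2 ratio, whose interval includes 0, turned to -0.071 with equal weight of cells and -0.042 with equal weight of phases. The median turned to 0.0099 without mitochondrial and ribosomal protein genes. Of 54 alternative pair differences 11 had the other sign, 6 for Itga2b with Itgb3, 4 for Itgal with Itgb2 and 1 for Itga5 with Itgb1. The filter of 1000 genes and at most 5% mitochondrial UMIs left 673 and 771 cells and gave a median ratio of -0.15, 1 chain at least 1.2-fold lower (Itga6), an Itga2b ratio of 1.26, an Itga5 ratio of 1.09, and pair differences of -3.14 points for Itga4 with Itgb1, -1.29 for Itga4 with Itgb7, 0.025 for Itga5 with Itgb1, -3.42 for Itga6 with Itgb1 and 0.15 for Itga2b with Itgb3. Equal weight of cells gave a median of -0.12 and 2 chains 1.2-fold lower (Itgb7, Itga6), and equal weight of phases 3 lower (with Itga5) and 0 higher. Chains at least 1.2-fold higher were 2 (Itga2b, Itgb3) with all barcodes and with a minimum of 20 UMIs. Without thinning the differences were -3.42 points for Itga4 with Itgb1, -5.49 for Itga4 with Itgb7, -4.11 for Itga6 with Itgb1, 0.13 for Itga2b with Itgb3 and 0.20 for Itgal with Itgb2. At 1000 UMIs they were -0.84 for Itga4 with Itgb7, -0.070 for Itga5 with Itgb1 and -0.19 for Itga6 with Itgb1, and with 2 UMIs of each chain required -0.68, -0.016 and -0.060. Fewer cells reach both chains under the last 2 settings by construction, and the cause of the other shifts was not tested. Depth limits Itga5, Itgb3, Itgam and the VLA-5, LFA-1, GPIIb/IIIa and Mac-1 pairs, each with few cells.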

Other observations

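Cells with under 2% mitochondrial UMIs, 165 in the oil-labelled library and 89 in the tamoxifen-labelled library, had a median of 1212 and 1651 UMIs. In them Itgb1 stood at 299 CPM (237 to 372) and 284 CPM (215 to 369), above the 181 and 172 CPM of cells with 5% to 10%, and Itga4 at 277 CPM (217 to 347) and 264 CPM (197 to 346), above 196 and 189 CPM. Itgb7 was highest at 2% to 5% in the oil-labelled library, at 143 CPM (133 to 155) against 106 CPM at 5% to 10%, and stood at 93.5 CPM (60.5 to 138) below 2%. In the tamoxifen-labelled library it was at 142 CPM (94.5 to 205) below 2%, from 28 UMIs, at 119 CPM at 2% to 5% and at 90.9 CPM at 5% to 10%. Itga2b in cells with 2% to 5% had 34 UMIs in the oil-labelled library and 88 in the tamoxifen-labelled library, or 7.44 CPM (5.15 to 10.4) and 17.9 CPM (14.4 to 22.1).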
